A study of Rattus norvegicus and Mus musculus with 14 samples.

Results

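Dlg4, Shank1 and Gabbr1 encode proteins of the synapse: PSD-95 and SHANK1, which are scaffolds of the excitatory postsynaptic density, and the GABA-B1 subunit of the metabotropic GABA receptor. The members were all probes whose only gene symbol in the platform annotation is one of these names. This gave 3 probes, 1 per gene, out of 1152 on a cDNA array, of which 384 carry a single symbol (342 genes). The Dlg4 probe is number 938, the Shank1 probe number 693 and the Gabbr1 probe number 356 in the order of the array table. With 1 probe per gene, no probe is checked by another of the same gene, and the sources used here do not say which stretch of each transcript it covers.

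PSD-95 is a membrane-associated guanylate kinase whose PDZ domains hold the cytoplasmic tails of NMDA receptor subunits. It also binds neuronal nitric oxide synthase (nNOS), and so places the enzyme beside the calcium that enters through the receptor. SHANK1 lies deeper in the density and is tied to PSD-95 through SAPAP (Dlgap) proteins and to metabotropic glutamate receptors through Homer. The GABA-B receptor works as a dimer of GABA-B1, which binds the transmitter, and GABA-B2, which couples to an inhibitory G protein. It is found on both sides of synapses and slows release and excitability.

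The series held 14 arrays, 12 of them from cultured cortical neurons of rat embryos, in a MEK set and a NOS set of 2 experiments each. Every experiment had 1 array of cells given the control solution (CSS in the labels), 1 of cells given NMDA, which opens NMDA-type glutamate receptors, and 1 of cells given NMDA with an inhibitor. The inhibitor was PD98059, which blocks MEK, in the MEK set, and nitroarginine, which blocks nitric oxide synthases, in the NOS set. The other 2 arrays were brain cortex of an adult C57BL mouse lacking nNOS and of a wild-type littermate. Each rat group therefore had n = 2 arrays and each mouse genotype n = 1. The sources used here do not state doses, exposure times, culture age or the knockout allele. The labels do not say whether the 2 experiments of a set used separate cultures, so the p-values rest on a spread between arrays that may be technical only. Inhibitor arrays all held NMDA too, so an inhibitor without NMDA was not measured. In cultures and in tissue, fewer cells of a type and less RNA per cell cannot be told apart.

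Values were Z-scores within each array: a value of 0 is the mean of all probes on that array, and 1 Z unit is about 1 SD over its probes. They rank brightness against the other probes of the array, carry no fold change, and do not allow the level of one gene to be set against that of another. The control column of MEK experiment 1 stood 1 row from its probes and was moved down by 1 row for every value below. Moved, it correlated with the median array at r = 0.823 over probes, against 0.103 as deposited. In the 48 rows on each side of the Dlg4, Shank1 and Gabbr1 probes, its r with the other MEK set control was 0.888, 0.914 and 0.903. It still stood apart from the other MEK set arrays, with r of 0.858 to 0.867 where those had 0.971 to 0.995 with each other. The arrays of NOS experiment 2 also stood apart, with r of 0.454 to 0.617 with those of experiment 1. The array has no probe named Nos1 or for an NMDA receptor subunit of the lists, so the deletion could not be checked on it.

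The Dlg4 probe stayed near the array mean in every culture. Control, NMDA and PD98059 arrays were at -0.12, -0.19 and 0.02 Z units in MEK experiment 1, and at -0.02, -0.09 and -0.12 in MEK experiment 2. Control, NMDA and nitroarginine arrays were at 0.06, 0.02 and -0.003 in NOS experiment 1, and at 0.22, 0.06 and -0.24 in NOS experiment 2. The control was the higher of control and NMDA in all 4 experiments, and over both sets the control and NMDA arrays overlapped. Differences between treatment means made up 33.3% of the variance of Dlg4 between the 6 MEK set arrays and 62.2% in the NOS set. Those between experiments made up 2.13% and 0.154%. Means of so few arrays take up part of the variance without any effect. Such shares were not computed over all probes for these genes to be set against. Wild-type and nNOS knockout cortex were at 0.41 and 0.28, both above all 12 rat arrays, whose highest value was 0.22. Of all probes, 6.78% had both mouse arrays above all rat arrays. Species, age and tissue all differ between them and cannot be told apart.

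Shank1 was above the array mean in 3 of the 4 experiments and near or below it in the other. Control, NMDA and PD98059 arrays were at 0.48, 0.19 and 0.32 Z units in MEK experiment 1 and at 0.25, 0.19 and 0.18 in MEK experiment 2. Control, NMDA and nitroarginine arrays were at 0.40, 0.32 and 0.45 in NOS experiment 1, and at 0.02, -0.15 and -0.12 in NOS experiment 2. All 3 arrays of NOS experiment 2 lay below the other 9 rat arrays, as they did for 25.5% of all probes. The 2 experiments accounted for 92.8% of the variance of Shank1 between the 6 NOS set arrays, and treatment for 4.56%. Wild-type and knockout cortex were at 0.12 and 0.18, inside the range of the cultures.

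Gabbr1 varied most between arrays of the 3 probes. Control, NMDA and PD98059 arrays were at -0.18, -0.49 and -0.38 Z units in MEK experiment 1 and at -0.06, -0.40 and -0.42 in MEK experiment 2. In the MEK set the 4 arrays with NMDA lay below both controls, as for 15.7% of all probes. Control, NMDA and nitroarginine arrays were at 0.40, 0.19 and 0.10 in NOS experiment 1, but at 0.24, 0.68 and 1.03 in NOS experiment 2, in the opposite order. All 6 MEK set arrays were below all 6 NOS set arrays, as for 14.9% of all probes, although both sets are labelled as the same kind of culture. Wild-type cortex was at 0.45 and knockout cortex at 0.05.

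**Figure D1:**
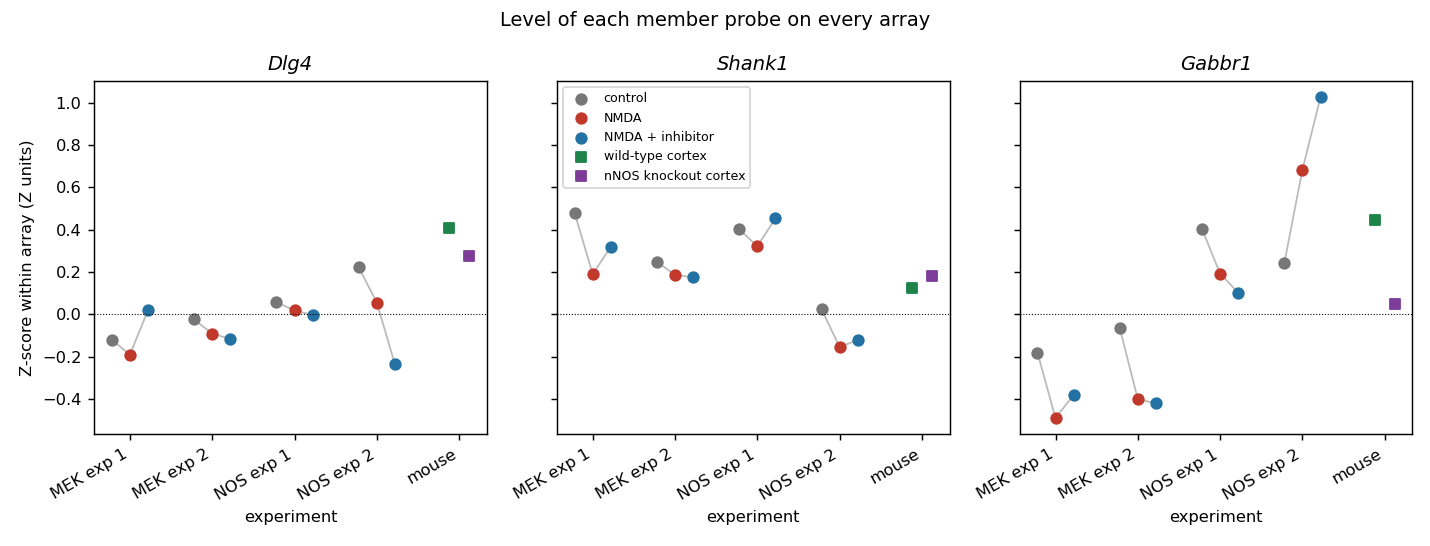
The Z-score of each probe (vertical axis, Z units) on every array, by experiment (horizontal axis), with points joined within an experiment and each point 1 array. Dlg4 stays between -0.24 and 0.22 in the cultures, Shank1 is lowest in NOS experiment 2, and Gabbr1 is below 0 on every MEK set array and above 0 on every NOS set array.

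The order of the conditions by mean level differed between the genes. For Dlg4 it ran from wild-type cortex (0.41) through knockout cortex (0.28), NOS set control (0.14 ± 0.12 SD, n = 2), NOS set NMDA (0.04 ± 0.03), PD98059 (-0.05 ± 0.10), MEK set control (-0.07 ± 0.07) and nitroarginine (-0.12 ± 0.17) to MEK set NMDA (-0.14 ± 0.07). NOS set control and NMDA did not overlap, though their nearest arrays were at 0.058 and 0.056; 4.6% of all probes had NMDA below control there without overlap. From NOS set NMDA downwards, each neighbour overlapped the next. For Shank1 it ran from MEK set control (0.36 ± 0.16), PD98059 (0.25 ± 0.10) and NOS set control (0.21 ± 0.27) to MEK set NMDA (0.19 ± 0.002), knockout cortex (0.18), nitroarginine (0.17 ± 0.41), wild-type cortex (0.12) and NOS set NMDA (0.08 ± 0.34). Neighbouring groups of Shank1 with n = 2 overlapped throughout. For Gabbr1 nitroarginine was first (0.56 ± 0.65), followed by wild-type cortex (0.45), NOS set NMDA (0.44 ± 0.35), NOS set control (0.32 ± 0.11), knockout cortex (0.05), MEK set control (-0.12 ± 0.08), PD98059 (-0.40 ± 0.03) and MEK set NMDA (-0.45 ± 0.06). Neighbours among the first 4 of these overlapped, and so did the last 2, but wild-type cortex lay above both NOS set control arrays. The MEK set control lay above PD98059 without overlap, as for 19% of all probes.

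NMDA was compared with control to ask what receptor stimulation did to these transcripts. All 3 probes had lower means under NMDA over both sets, and none passed the test. The differences were -0.09 Z units for Dlg4 (SE 0.15, 95% interval -0.42 to 0.25), -0.15 for Shank1 (SE 0.20, -0.60 to 0.30) and -0.10 for Gabbr1 (SE 0.22, -0.61 to 0.40), each with adjusted p = 0.9997 in limma. The threshold was an adjusted p under 0.05, which 0% of probes met, and 0.955% had an unadjusted p under 0.05. With experiment as a block, 0 probes passed and 11.1% had an unadjusted p under 0.05. The intervals then narrowed to -0.33 to 0.16 for Dlg4, -0.38 to 0.07 for Shank1 and -0.45 to 0.25 for Gabbr1. These intervals hold for the Z-scores as scaled, on a spread that may be technical only, and do not show that the levels were equal. With a running median along the probe order removed from each array, the Shank1 difference was 0.18, outside its block interval. Those of Dlg4 (0.10) and Gabbr1 (0.0072) were inside theirs. Without the 3 arrays of NOS experiment 2 the Gabbr1 difference over both sets was -0.27, with 1 array left in each NOS set group. The experiment left out was the only 1 where Gabbr1 was higher under NMDA, by 0.44 Z units, so the rest share a direction by that choice.

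Within experiments, NMDA minus control was -0.07, -0.07, -0.04 and -0.17 Z units for Dlg4 in MEK experiments 1 and 2 and NOS experiments 1 and 2. For Shank1 it was -0.29, -0.06, -0.08 and -0.18. Both scaffold probes were lower in 4 of 4 experiments as Z-scores, which 4.6% of all probes were, whereas 10.2% were higher in all 4. The direction depended on how the arrays were scaled: Dlg4 was lower in 1 of 4 experiments after quantile normalization, median and MAD scaling, or removal of a running median along the probe order, and Shank1 in 3, 3 and 0 of 4. An exact two-sided sign-flip permutation test over the 4 experiments gave p = 0.125 for Dlg4 and for Shank1, the smallest it can give. For Gabbr1 the same exact test gave p = 0.625. Each single difference of Dlg4 and Shank1 lay well inside the spread of the array: 31.4% to 45% of probes had a lower value than Dlg4 and 26.1% to 32.4% a lower value than Shank1.

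**Figure D2:**
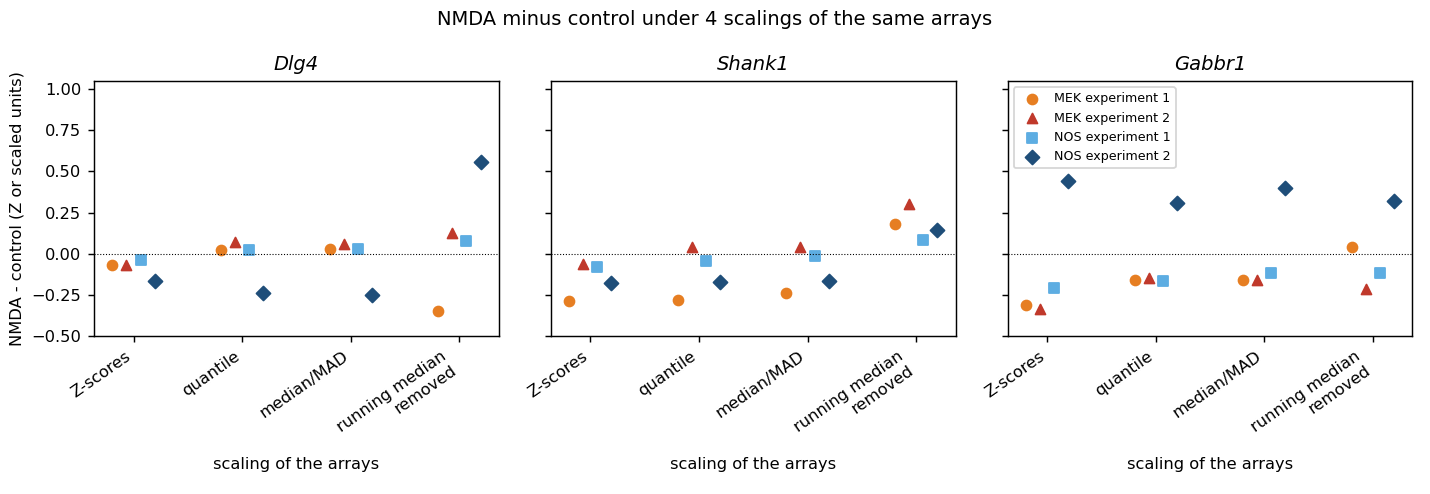
NMDA minus control (vertical axis, Z or scaled units) in each of the 4 experiments under 4 scalings of the same arrays (horizontal axis), 1 point per pair of arrays. The Dlg4 points lie below 0 in 4 of 4 experiments as Z-scores and in 1 of 4 under each other scaling, while the NOS experiment 2 point of Gabbr1 is above 0 under all 4.

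Gabbr1 was lower under NMDA in both MEK set experiments as Z-scores and after quantile or median and MAD scaling, and in 1 of them with the running median removed. NMDA minus control was -0.31 Z units in MEK experiment 1 and -0.34 in MEK experiment 2. Differences between treatment means made up 91.4% of its variance between those 6 arrays. Means of so few arrays take up part of the variance without any effect, and the share over all probes was not computed. The NMDA and control arrays did not overlap, with NMDA lower, as for 20% of all probes. The mean difference was -0.32 (SE 0.32, 95% interval -1.04 to 0.39) and did not pass (limma, adjusted p = 0.998). With experiment as a block the interval was -0.82 to 0.17. Both intervals rest on a spread shared by all 6 rat groups, and not on the MEK set arrays alone. The SD of Gabbr1 was 0.08, 0.06 and 0.03 in MEK set control, NMDA and PD98059. It was 0.11, 0.35 and 0.65 in NOS set control, NMDA and nitroarginine. In the MEK set the 95% interval for Dlg4 ran from -0.54 to 0.40 around -0.07. That for Shank1 ran from -0.81 to 0.46 around -0.18. Without the block 0% of probes passed there either, with 1.39% (16 probes) at an unadjusted p under 0.05. With experiment as a block 0 probes passed in the MEK set, and 166 had an unadjusted p under 0.05. In MEK experiment 2, which does not use the moved column, 8.85% of probes had a lower difference than Gabbr1.

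In the NOS set the 2 experiments pointed opposite ways for Gabbr1. The difference was -0.21 Z units in experiment 1, where 3.3% of probes had a lower one, and 0.44 in experiment 2, where 86.2% did. The mean was 0.12 (SE 0.32, 95% interval -0.60 to 0.83; limma, adjusted p = 0.9998), and the control and NMDA arrays overlapped. The pattern of 3 experiments lower and NOS experiment 2 higher was shared by 12.3% of all probes. The difference between sets in the NMDA effect, NOS minus MEK, was 0.44 for Gabbr1 (SE 0.45), -0.03 for Dlg4 (SE 0.29) and 0.05 for Shank1 (SE 0.40). None passed (limma, adjusted p = 0.999 for each), so no difference between the sets was shown. Within the NOS set Dlg4 was at -0.10 (SE 0.21) and Shank1 at -0.13 (SE 0.28). Without the block 0% of probes passed the threshold there, and 0.174% (2 probes) had an unadjusted p under 0.05. With experiment as a block 0 probes passed in the NOS set, and 57 had an unadjusted p under 0.05. With experiment as a block the NOS set SEs were 0.15 for Dlg4, 0.14 for Shank1 and 0.22 for Gabbr1. Those of NOS minus MEK were then 0.22, 0.20 and 0.31, and none passed.

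PD98059 was compared with NMDA alone to ask whether blocking MEK changed the levels of stimulated cultures. The 3 probes were each higher with the inhibitor in experiment 1 and lower in experiment 2. Dlg4 differed by 0.21 and -0.02 Z units, Shank1 by 0.13 and -0.01, and Gabbr1 by 0.11 and -0.02. The PD98059 and NMDA arrays overlapped for each gene. Means were 0.09 for Dlg4 (95% interval -0.38 to 0.56), 0.06 for Shank1 (-0.58 to 0.70) and 0.05 for Gabbr1 (-0.67 to 0.76). None passed (limma, adjusted p = 0.9999 for each), with 0% of probes past the threshold and 0% at an unadjusted p under 0.05. With experiment as a block 0 probes passed, and 5 had an unadjusted p under 0.05. PD98059 minus control was not tested. These comparisons share the NMDA arrays with those of NMDA and control.

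Nitroarginine was compared with NMDA alone to ask whether blocking nitric oxide synthesis changed these levels. Dlg4, whose product tethers nNOS to the NMDA receptor, was lower with the inhibitor in both experiments, with differences of -0.02 and -0.29 Z units, as were 31.4% of all probes. Shank1 was higher in both, by 0.13 and 0.03, as were 29.5% of all probes. Gabbr1 was at -0.09 in experiment 1 and at 0.34 in experiment 2. The means were -0.16 for Dlg4 (SE 0.21, 95% interval -0.63 to 0.31), 0.08 for Shank1 (SE 0.28, -0.55 to 0.72) and 0.13 for Gabbr1 (SE 0.32, -0.59 to 0.84). None passed (limma, adjusted p = 0.998 for each), with 0% of probes past the threshold and 0.0868% at an unadjusted p under 0.05. These intervals include the difference between experiments. With experiment as a block they were -0.50 to 0.19 for Dlg4, -0.24 to 0.40 for Shank1 and -0.37 to 0.62 for Gabbr1, and none passed. Of all probes 0 passed with the block, and 42 had an unadjusted p under 0.05, against 1 without it. The nitroarginine and NMDA arrays did not overlap for Dlg4, where -0.003 and -0.24 lay below 0.02 and 0.06. Of all probes, 5.56% had both nitroarginine arrays below both NMDA arrays. The arrays overlapped for Shank1 and Gabbr1.

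**Figure D3:**
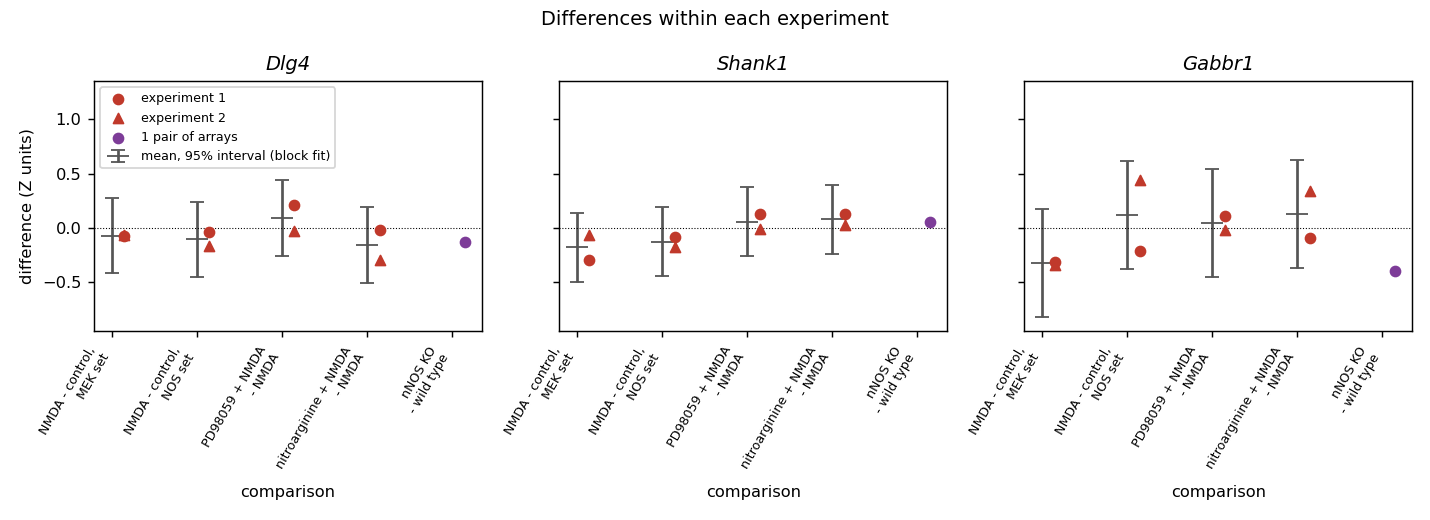
Differences in Z units (vertical axis) for each comparison (horizontal axis): red points are single experiments, purple points the mouse pair, and bars the mean with its 95% interval from the fit with experiment as a block (n = 2 arrays per group). Each interval spans 0, the 2 experiments of Gabbr1 lie on opposite sides of 0 in both NOS set comparisons, and the knockout point of Gabbr1 is at -0.40.

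The nNOS knockout was compared with its littermate to ask how loss of the enzyme that PSD-95 tethers went with these levels. There was 1 array per genotype, so the differences have no replicate check and no test. Gabbr1 was lower in the knockout by 0.40 Z units (0.05 against 0.45), and 2.95% of all probes had a lower difference. Dlg4 was at 0.28 in the knockout and 0.41 in the wild type, a difference of -0.13, and 22% of probes had a lower one. Shank1 was at 0.18 and 0.12, a difference of 0.06, with 59.5% of probes lower. None of the 3 was past 0.5 Z units, the size used here in place of a test, which 1.56% of probes passed downwards and 0.781% upwards. The SD of the knockout difference over all probes was 0.199. The knockout and nitroarginine differences, both of which concern loss of nitric oxide synthesis, were -0.13 against -0.02 and -0.29 for Dlg4, 0.06 against 0.13 and 0.03 for Shank1, and -0.40 against -0.09 and 0.34 for Gabbr1. Species, age, tissue and the NMDA stimulus differ between them, so they are given side by side only.

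**Figure D4:**
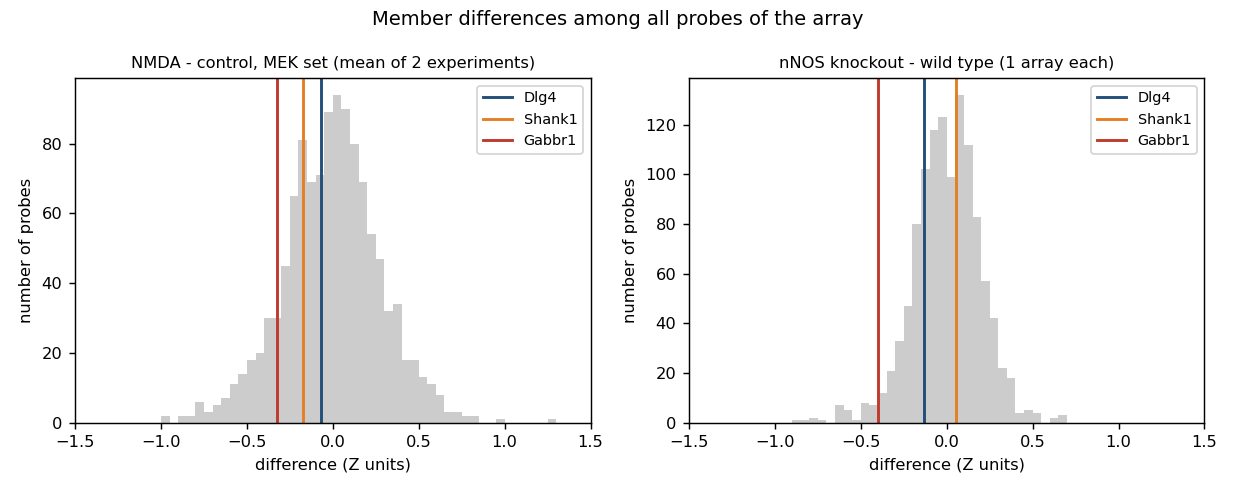
Histograms of the difference over all probes of the array (horizontal axis, Z units in bins of 0.05; vertical axis, number of probes) for NMDA minus control in the MEK set and for knockout minus wild type, with the 3 probes as vertical lines and 2 probes outside the left plot's range not drawn. Gabbr1, at -0.32 and -0.40, lies in the lower flank of both, and Dlg4 and Shank1 lie nearer the centre.

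Few other genes of these pathways were named on the array, where 762 probes had no symbol and 6 had several. A listed gene is called measured here if a single-symbol probe has its name. Whether the other probes cover further listed genes is not known. Of 72 genes on a list for the postsynaptic density, wider than its excitatory scaffolds, 4 were measured: Dlg4, Shank1, Nlgn2 and Cpe. Of 42 genes of GABA receptors and GABA transmission 2 were, Gabbr1 and Gabra2, and of 39 nitric oxide signalling genes and 27 presynaptic genes 1 each, Hsp90ab1 and Sv2b. None passed in any of the 6 rat comparisons (limma, lowest adjusted p = 0.998). Nlgn2 encodes neuroligin 2, an adhesion molecule of inhibitory synapses, and its NMDA minus control was 0.35 and 0.09 Z units in the MEK set and -0.02 and -0.15 in the NOS set. Gabra2 encodes the alpha2 subunit of the GABA-A receptor, the ion channel type of GABA receptor, and was at -0.61, 0.04, -0.13 and 0.16 in the same order. Cpe encodes carboxypeptidase E, which processes neuropeptides, and was at -0.23, -0.07, 0.21 and -0.42.

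The remaining 2 listed genes were higher under NMDA in all 4 experiments under every scaling run, except for Hsp90ab1 in 1 experiment with the running median removed, where its difference was 0. Of all probes, 10.2% were higher in all 4 experiments as Z-scores, 8.25% after quantile normalization, 17.5% after median and MAD scaling and 15.8% with the running median removed. Sv2b, a synaptic vesicle glycoprotein gene, was at 0.64, 0.19, 0.13 and 0.38 Z units, with a mean over both sets of 0.33 (SE 0.21). Hsp90ab1 encodes a heat shock protein 90 chaperone, a class known to bind nitric oxide synthases, and was at 1.12, 0.06, 0.14 and 0.45, with a mean of 0.44 (SE 0.26). Both had adjusted p = 0.9997 in limma. In the knockout, Sv2b was higher by 0.29 and Hsp90ab1 was at -0.27.

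Of cell type markers, 3 of 14 neuronal genes (Uchl1 with 2 probes, Nefl and Stmn2), 2 of 10 astrocyte genes (Gfap with 2 probes, Glul), 1 of 7 microglial genes (Csf1r) and none of 8 oligodendrocyte, 4 endothelial and 5 progenitor genes were measured. The labelled neurons and cortex could therefore be checked only in part, since a Z-score does not give the level of one gene against another. The mean Z-score of the 4 neuronal probes was -0.24 to 0.17 on the 4 control arrays and 0.26 to 0.47 on the 4 NMDA arrays. The 3 astrocyte probes had means of -0.20 to 0.01 and -0.19 to 0.14, and Csf1r was at 0.36 to 0.84 and 0.37 to 1.33. The neuronal mean was 0.265 to 0.37 with PD98059, and -0.01 to 0.20 with nitroarginine, which overlapped the controls. Its probes did not all rise under NMDA: Stmn2 differed by -0.15 in MEK experiment 2 and 1 Uchl1 probe by -0.005 in NOS experiment 1. No marker probe passed (limma, lowest adjusted p = 0.998), and no share over all probes was computed for such a mean. The neuronal marker mean was higher under NMDA in 4 of 4 experiments under each of the 4 scalings, while Dlg4 and Shank1 were lower in 4 of 4 only as Z-scores. Its part in the Dlg4 and Shank1 differences was not tested.

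The named probes whose values followed each gene most closely were ranked by Pearson's r over the 12 rat arrays after the mean of each experiment was subtracted, among 383 other named probes. For Dlg4 they were Ak3, a mitochondrial adenylate kinase gene (r = 0.910), Prnp, the prion protein gene (0.80), and Acta2, a smooth muscle actin gene (0.784). For Shank1 they were Asb3 (0.896), Tmcc2 (0.861) and Ckb, the brain creatine kinase gene (0.856). For Gabbr1 they were Smpd3, a neutral sphingomyelinase gene (0.965), Slc25a16, a mitochondrial carrier gene (0.892), and Sh3glb2 (0.886). Without that subtraction, r over the same arrays was 0.691, 0.596 and 0.750 for the probes named for Dlg4. It was -0.568 for Asb3, 0.006 for Tmcc2 and 0.912 for Ckb with Shank1, and 0.796, 0.908 and 0.921 for those named for Gabbr1. The likeness of Asb3 and Tmcc2 to Shank1 therefore held within experiments only. Arrays of an experiment are not independent, and these are descriptions only. Of all other probes, named or not, 1.48%, 2.61% and 2.09% had r over 0.8 with Dlg4, Shank1 and Gabbr1.

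The Smpd3 probe is the next one after Gabbr1 in the array table. Its NMDA minus control was -0.10, -0.33, -0.23 and 0.35 Z units, which describes the likeness it was chosen for. In the mouse pair, which did not enter that choice and had 1 array per genotype, the Smpd3 difference was -0.23. Slc25a16 was at -0.13 there and Sh3glb2 at 0.07, against -0.40 for Gabbr1. The probe before Gabbr1, which has no gene name here, had r = -0.475 with it. Over the array, probes in neighbouring rows had a median r of 0.456, against 0.119 for probes 48 rows apart and -0.003 for all pairs, and 5.74% of neighbouring pairs had r over 0.9. The sources used here do not say how rows map to places on the array, and the part of this in the Gabbr1 values was not tested. With each array's running median over 25 rows removed, Gabbr1 was at 0.04, -0.22, -0.12 and 0.32 in the 4 experiments. Among the 3 genes themselves, r was 0.404 between Dlg4 and Shank1, -0.558 between Dlg4 and Gabbr1, and -0.02 between Shank1 and Gabbr1.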

How the data were processed

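The deposited values are scores. Each array's column has a mean of 0 and mostly an SD near 1, and the sources used here do not say what the authors did to reach it. The SD was 0.857 in the NOS experiment 2 control. Symbols came from the platform annotation; of 384 single-symbol probes 362 matched the RefSeq rat gene table. Moving the MEK experiment 1 control column left 1 probe without its value there. The tests used limma (version 3.58.1, under R 4.3.3) with 6 group means over 12 rat arrays, 6 residual degrees of freedom, two-sided moderated tests, Benjamini-Hochberg adjustment over 1152 probes, threshold 0.05. The design was written for log values; because the scores are already normalized, the same fit was run on them. The fit was tested only on simulated arrays with independent noise, no difference between experiments and changes of 1 Z unit. The noise SD was 0.174, the median over probes with the block, against 0.361 in the fit as designed. That test therefore does not show how the fit behaves on these arrays. Mouse arrays stayed out of it. Depth has no meaning for these arrays; their number limits the precision.

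Experiment numbers in the labels pair the arrays. Deviations from group means correlated at 0.874 to 0.930 between same-numbered arrays of the NOS set and at -0.145 to 0.07 in the MEK set. The fit without this block was the designed one. Members, gene lists and the rule for named genes (the 3 genes, the measured members of the 4 pathway lists, and the 3 most similar named probes of each gene) were chosen with earlier results of these data known. Alternatives were the column as deposited, the block, each array left out, quantile and median with MAD scaling, a running median over 25 rows removed, variance trend with robust moderation, a filter on the dimmest 25% of probes, and leaving out NOS experiment 2. Figures used Python 3.11.15 and matplotlib 3.10.9.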

Additional observations from a re-analysis of the deposited data

How the results depend on the processing

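No difference of the 3 genes passed in any of 414 values under other settings (18 results, 23 settings; limma, lowest adjusted p = 0.344). Of these values 45 had the other sign than in the fit as designed, and the cause was not tested. They came from other scalings and also from fits of the same Z-scores, such as those with arrays left out. With a running median removed, with or without the replicate block, NMDA minus control over both sets was 0.10 for Dlg4, 0.18 for Shank1 and 0.0072 for Gabbr1, Shank1 was at 0.24 in the MEK set and 0.12 in the NOS set and Dlg4 at 0.32 in the NOS set, and NOS minus MEK was 0.43 for Dlg4 and -0.13 for Shank1. In the same settings PD98059 minus NMDA was -0.0083 for Shank1 and -0.0018 for Gabbr1, nitroarginine minus NMDA -0.074 for Shank1, and the knockout difference of Dlg4 -0.33. Dlg4 in the MEK set was at 0.047 after quantile normalization and 0.044 after median and MAD scaling. NOS minus MEK for Dlg4 was 0.28 with the column as deposited, and for Dlg4 and Shank1 0.023 and -0.030 with the replicate block and MEK experiment 1 control left out. Without NOS experiment 2 it was 0.029 for Dlg4, Gabbr1 over both sets moved from -0.10 to -0.27, and Gabbr1 was at -0.21 for NMDA and -0.090 for nitroarginine in the NOS set.

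With 1 array left out at a time, NMDA minus control over both sets ran from -0.13 to -0.045 for Dlg4, from -0.27 to -0.033 for Shank1 and from -0.23 to 0.019 for Gabbr1. In the MEK set the ranges were -0.12 to -0.019, -0.29 to -0.060 and -0.38 to -0.27, and in the NOS set -0.19 to -0.021, -0.37 to 0.11 and -0.13 to 0.36, in the same order. NOS minus MEK ran from -0.12 to 0.048 for Dlg4, from -0.19 to 0.29 for Shank1 and from 0.19 to 0.68 for Gabbr1. PD98059 minus NMDA ran from 0.025 to 0.16, from -0.013 to 0.13 and from 0.0010 to 0.090. Nitroarginine minus NMDA ran from -0.27 to -0.040, from -0.21 to 0.37 and from -0.34 to 0.59. Leaving out 1 NOS set array without the block lets the difference between experiments into these values. Gabbr1 in the MEK set was at -0.15 after quantile normalization, -0.16 after median and MAD scaling and -0.088 with the running median removed. Limma called 0 probes in each comparison as designed. Without MEK set control replicate 2 it called 1 for NMDA over both sets, in the MEK set and for NOS minus MEK, and 0 without any other array. With the replicate block, variance trend and robust moderation, a setting added after seeing the data, it called 3 over both sets and 5 in the MEK set. The other added choices were the block with the running median removed and the sign-flip test. The replicate block alone changed no call of these genes.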
